A study of Mus musculus with 30 samples.

Results

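Genes of DNA replication and of mitosis were followed in the mouse sclera over the first 8 postnatal weeks. The list held 44 genes, named by symbol for their roles in the cell cycle. A gene was measured where the array's probe table gave at least 1 transcript cluster (the set of probes that covers a gene) to that symbol alone, and where a gene had more than 1, the cluster with the highest mean signal was used. This found 43 of the 44 genes among 19938 genes with a cluster of their own, 15 of DNA replication and 28 of mitosis. Ccnb1 had no cluster of its own in the table and was not analysed here.

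A dividing cell copies its DNA in S phase and separates the copies in mitosis. For replication, the Mcm2 to Mcm7 helicase is loaded on DNA by Cdc6 and Cdt1 in G1, cyclin E with Cdk2 drives the entry into S phase, and the enzymes Rrm1, Rrm2 and Tyms supply nucleotides. Mitosis follows the rise of Cdk1 with cyclins A and B, uses kinesins, Aurora and Polo kinases to build and split the spindle, and ends when the anaphase-promoting complex with Cdc20 marks cyclins for destruction. The mRNAs of the replication genes are highest in most cycling cells in G1 and S phase and those of the mitosis genes in G2 and M phase. The sclera is a collagen-rich tissue made by few fibroblasts, and the eyelids of the mouse open during its second week of life.

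The samples were single sclerae of Balb/cJ mice aged 1, 2, 3, 6 or 8 weeks, with 6 mice per age, and the labels name no treatment and no engineered allele. Each sclera was ground whole, and its RNA was hybridised to 1 Affymetrix Mouse Gene 1.0 ST array, so that each array is 1 animal; the mice were of the same family. The question was which genes change with age as the sclera grows, from week 1 to 2, 2 to 3, 3 to 6 and 6 to 8, and from week 1 to 8. Since whole tissue was measured, fewer cells of a type and less RNA per cell cannot be told apart.

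The deposited values were log2 signals, and the 35556 transcript clusters were all used in the tests. Week 2 replicate 4 equalled the mean of the other 5 arrays of week 2 on every transcript cluster to within 8e-05, whereas each of the other 29 arrays differed from the mean of its week by at least 1.91 on some transcript cluster. That array therefore held no measurement of its own and was left out, which left 29 arrays, with n = 5 at week 2 and n = 6 at the other weeks. At week 6, the mean of replicates 4 and 6 equalled the mean of the other 4 arrays to within 7.5e-05, so these 6 arrays are not fully independent either. The number of arrays limits the precision. The fibroblast genes that define the labelled tissue (14 collagens, proteoglycans and other matrix and surface genes) had list means of 9.42 to 10.50 over the weeks, above the median transcript cluster at 6.23. From week 1 to 2, when 25 members rose, 14 of 14 fibroblast genes fell (8 of them called, median change -1.15), as did 9 of 9 photoreceptor genes (median -3.48) and 7 of 8 genes of the pigment epithelium (median -3.98), and the part of these tissues in the members' changes was not tested. Markers of tissues next to the sclera were also high at some ages, with striated muscle list means of 11.23 at week 1, 7.16 at week 2, 6.87 at week 3, 10.08 at week 6 and 10.67 at week 8.

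Both member groups were lowest at week 1, but they parted at later ages. The mean log2 signal of the replication members was 6.56 ± 0.18 (SD over arrays, n = 6) at week 1, 6.99 ± 0.18 (n = 5) at week 2, 7.03 ± 0.33 at week 3, 6.88 ± 0.27 at week 6 and 6.88 ± 0.34 at week 8. The mean of the mitosis members was 6.01 ± 0.30 at week 1, 6.57 ± 0.18 at week 2, 6.21 ± 0.35 at week 3, 6.70 ± 0.28 at week 6 and 6.98 ± 0.44 at week 8. The replication mean thus stood highest at weeks 2 and 3, while the mitosis mean dipped at week 3 and stood highest at week 8. The replication mean of week 8 was lowered by replicate 2 (6.220, the others 6.870 to 7.180). By the median over arrays, the replication members were at 6.979 at week 8, near the 6.986 of week 2, and at 7.110 at week 3. In both groups the array values of weeks 2, 3, 6 and 8 overlapped. In limma's F test over the 5 week means, 39 of the 43 members differed among the ages at an adjusted p of 0.05 or less, 28 of 28 mitosis members and 11 of 15 replication members. The background was high, since 91.5% of all 19938 genes passed the same test. The 4 members that missed it were Mcm3 (adjusted p = 0.0791), Mcm4 (0.0579), Gins1 (0.0795) and Rrm1 (0.35), all of replication.

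**Figure D1:**
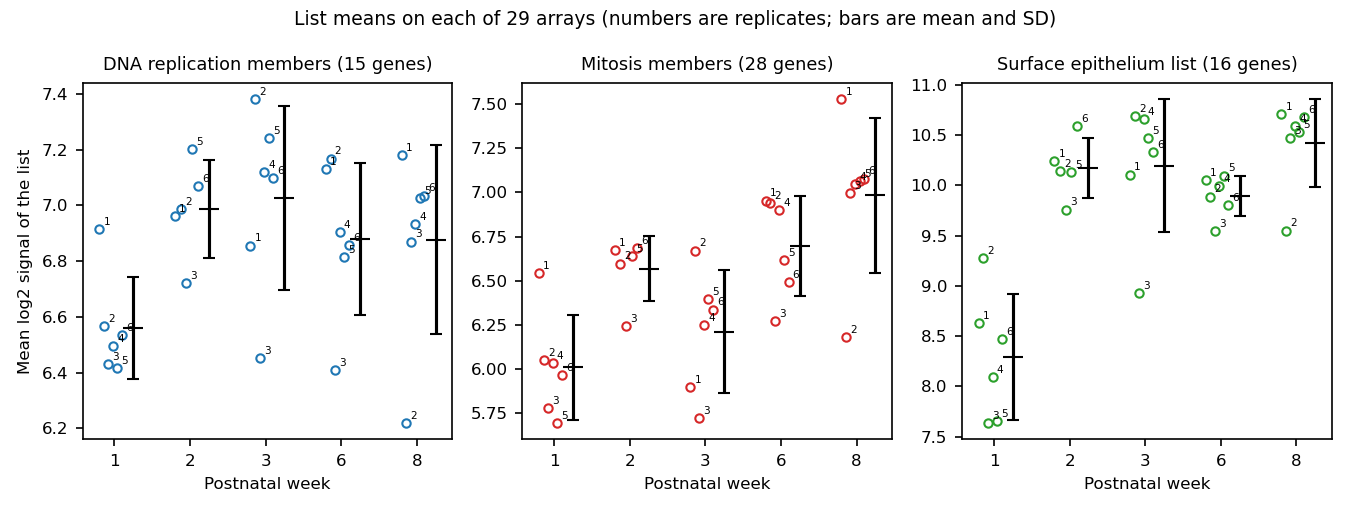
Mean log2 signal of the 15 DNA replication members, the 28 mitosis members and a list of 16 surface epithelium genes on each of 29 arrays, by postnatal week (open circles, with replicate numbers; bars are the mean and SD of each week). The mitosis mean falls from 6.57 at week 2 to 6.21 at week 3 and reaches 6.98 at week 8, and the array lowest in the epithelium list in weeks 2, 3, 6 and 8 is also the lowest in both member means, which does not hold at week 1.

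Genes of the surface epithelium that covers the front of the eye moved in the direction of the members at some steps and not at others. This list holds 16 keratin, desmosome and other epithelial genes such as Krt12, the keratin of the corneal epithelium, which had a mean of 10.44 at week 1 and 13.07 at week 2. From week 1 to 2 and from week 1 to 8, 16 of 16 rose at an adjusted p of 0.05 or less and 14 of 16 at least doubled. From week 2 to 3, where the mitosis mean went from 6.57 to 6.21, the epithelium list had a median change of -0.07 with 2 of 16 higher and 0 lower. From week 3 to 6, where the mitosis mean went from 6.21 to 6.70, 6 of 16 epithelium genes fell and 1 rose (median -0.31), and from week 6 to 8, 6 rose and 0 fell (median 0.45). The array means of the list ran from 7.64 to 9.28 at week 1, 9.76 to 10.59 at week 2, 8.93 to 10.69 at week 3, 9.55 to 10.10 at week 6 and 9.55 to 10.71 at week 8, and no marker was at 0 on this scale. Within weeks, the arrays lowest in this list were replicate 3 at weeks 2, 3 and 6 and replicate 2 at week 8, and each of them was also the lowest in the replication mean and in the mitosis mean. At week 1 this did not hold, since replicate 3 was lowest in the epithelium list (7.64) and replicate 5 in both member means (6.42 and 5.70), and replicate 2 was highest in the former (9.28) and replicate 1 in the latter (6.92 and 6.54). The link was not particular to the epithelium. At weeks 2, 3, 6 and 8 the same arrays were highest in striated muscle (7.871, 7.953, 11.024 and 11.457). They were also highest in 10 endothelium genes (means of 9.155, 10.042, 8.957 and 8.978). At week 1, replicate 5 was highest in endothelium (9.396) but not in striated muscle. Neither list was used as a covariate, and the part of each tissue was not tested. With the epithelium mean of each array as a covariate, the median change of the mitosis members was -0.36 from week 1 to 2 and -0.16 from week 1 to 8, whereas from week 3 to 6 it was 0.71 and 24 of 28 rose. With that covariate, the median change of the replication members was -0.39 from week 1 to 2, where 5 fell, and -0.55 from week 1 to 8, where 8 fell. The array means of the list at week 1 lay wholly below those of weeks 2 and 8. For these spans the fit extends a slope seen within weeks beyond the data and cannot separate the epithelium from age.

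The promoters of the members are shown here because the same short motifs recurred within each group. The CHR element (letters TTTGAA) is known as the site through which the DREAM and MuvB complexes act on genes of mitosis, often next to a CCAAT box (letters CCAAT), and E2F sites (letters TTTGGCGC, TTTGCCGC, TTTCGCGC or TTTCCCGC) are known from genes of replication. All were searched on both strands of RefSeq promoters of the GRCm38.p6 build, from 250 bases before to 50 bases after a gene's start, which were at hand for 22 of the 28 mitosis and 12 of the 15 replication members. The CHR letters occurred in 16 of 22 mitosis members (72.7%) and in 1 of 12 replication members, Mcm2, against 20.2% of 27025 genes with a promoter. The E2F letters occurred in 6 of 12 replication members, namely Mcm3, Mcm5, Mcm6, Mcm7, Cdc6 and Cdt1, and in 1 of 22 mitosis members, Cdk1, against 2.6% of all. CCAAT occurred in 77.3% of mitosis and 66.7% of replication members, against 41.1%. Among the 15614 measured genes with a promoter, the shares were 17.3% for CHR, 3.48% for E2F and 41.7% for CCAAT. These are counts of letters in a window and not of bound sites.

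The first stretches are of mitosis members, 60 bases long and written 5′ to 3′ along the gene's strand, with the CHR and CCAAT letters of either strand in capitals (TTCAAA and ATTGG are their reverse complements).
Cdc20, minus strand, chr4:118437344-118437403: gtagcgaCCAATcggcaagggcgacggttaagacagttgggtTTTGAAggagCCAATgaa
Cdk1, minus strand, chr10:69352913-69352972: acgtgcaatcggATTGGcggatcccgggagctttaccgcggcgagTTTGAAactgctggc
Prc1, plus strand, chr7:80294404-80294463: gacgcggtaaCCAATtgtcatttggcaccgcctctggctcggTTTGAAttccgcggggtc
Kif11, plus strand, chr19:37376321-37376380: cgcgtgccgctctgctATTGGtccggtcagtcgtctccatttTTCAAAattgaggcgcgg
Top2a, minus strand, chr11:99024195-99024254: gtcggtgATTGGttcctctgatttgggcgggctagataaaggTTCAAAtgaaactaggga
Ube2c, plus strand, chr2:164769858-164769917: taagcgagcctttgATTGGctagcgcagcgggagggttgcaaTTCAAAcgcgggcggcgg
Mki67, minus strand, chr7:135716460-135716519: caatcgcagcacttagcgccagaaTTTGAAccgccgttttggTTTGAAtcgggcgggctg

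Before the start of the gene, 8 mitosis members had the CHR letters, and in 6 of these 8 the 60 bases taken around the CHR hold a whole CCAAT box. The exceptions were Mki67, which holds the CHR letters at 2 places and has a CCAAT box starting 1 base outside its stretch, and Ccnb2, which is not shown. The next stretches are of replication members, with the E2F letters (and any CCAAT box) of either strand in capitals.
Mcm6, minus strand, chr1:128359733-128359792: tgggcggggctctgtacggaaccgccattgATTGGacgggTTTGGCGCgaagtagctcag
Mcm5, plus strand, chr8:75109320-75109379: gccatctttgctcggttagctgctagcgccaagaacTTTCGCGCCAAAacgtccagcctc
Mcm7, minus strand, chr5:138172029-138172088: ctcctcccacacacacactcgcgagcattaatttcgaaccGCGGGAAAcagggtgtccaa
Cdc6, plus strand, chr11:98907973-98908032: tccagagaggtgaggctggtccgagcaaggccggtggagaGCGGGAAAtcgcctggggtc

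In Mcm5 an E2F match on each strand overlapped in 1 run of 12 bases. The same motifs were counted in lists of further cell cycle genes that are no members. E2F letters occurred in 31.6% of 38 other replication genes and 9.76% of 41 other mitosis genes, and CHR letters in 18.4% and 70.7%.

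From week 1 to 2, members of both groups rose. In what follows, rose and fell are used for an adjusted p of 0.05 or less in limma with Benjamini-Hochberg adjustment over all transcript clusters, and called for a change that was also at least 2-fold, the criterion of the study. Of the 43 members, 25 rose and 0 fell (at an unadjusted p under 0.05, 26 were higher and 0 lower), 8 of 15 for replication and 17 of 28 for mitosis, while 36.6% of all genes rose and 32.7% fell. Called higher were 3 members, Rrm2, Mki67 and Kif23, against a background of 3.52%. The values at week 2 lay wholly above those at week 1 for 10 members and wholly below for 0, against 20.9% and 17.7% of all genes. The median log2 change was 0.39 for replication and 0.50 for mitosis, beside 0.05 over all genes.

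Rrm2, the small subunit of ribonucleotide reductase, whose supply limits the making of DNA building blocks, had log2 signals of 6.05 at the lowest, 6.46 at the median and 7.07 at the highest at week 1. Its week 2 values were 7.53, 7.57, 7.34, 8.06 and 7.69, all above those of week 1. The change was 1.12 ± 0.25 (SE; 2.17-fold, adjusted p = 0.00034). Kif23, a kinesin of the midzone spindle that cytokinesis needs, ran from 5.68 over 6.41 to 6.97 at week 1 and was 7.83, 7.74, 6.97, 7.66 and 7.91 at week 2. The lowest week 2 array came just above the highest of week 1, and the change was 1.25 ± 0.30 (2.38-fold, adjusted p = 0.0007). Mki67, which encodes the Ki-67 protein used to mark cycling cells, ran from 6.35 over 6.94 to 7.84 at week 1 and was 8.12, 7.95, 7.48, 8.30 and 8.20 at week 2. Its ranges overlapped through 1 array of each week, and the change was 1.08 ± 0.28 (2.11-fold, adjusted p = 0.00134). The Mki67 call was lost without week 1 replicate 3 (0.96) or week 1 replicate 5 (0.99). With the epithelium covariate, Rrm2, Kif23 and Mki67 were not called and their changes were -0.11, -0.41 and -0.31. Since the epithelium means did not overlap between weeks 1 and 2, that fit cannot separate the epithelium from age.

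From week 2 to 3 the medians of the groups moved apart, but the share of mitosis members that fell was below that of all genes. In limma, 0 members were called in either direction (2 higher and 11 lower at an unadjusted p under 0.05), beside 2.87% of all genes called higher and 0.196% called lower. Without the fold threshold, 5 of 28 mitosis members fell and 0 rose, and 1 replication member rose and 1 fell, where 27.2% of all genes rose and 23.4% fell. The median change was -0.35 for mitosis and -0.02 for replication, beside 0.01 over all genes. The mitosis members that fell were Nusap1 (by 0.54 ± 0.19), Cdc20 (by 0.45 ± 0.14), Birc5 (by 0.41 ± 0.14), Aurka (by 0.36 ± 0.11) and Ndc80 (by 0.34 ± 0.11). Week 3 values lay wholly below those of week 2 for 2 members, Aurka and Ndc80, against 8.93% of all genes. The number of mitosis members that fell depended on the fit: it was 9 with all 30 arrays kept, 13 with the epithelium covariate and 1 with the spread of each array as a covariate (median change -0.82). The spread did not overlap between these weeks (interquartile ranges of 2.220 to 2.560 at week 2 and 2.706 to 2.803 at week 3). The fit with the spread therefore cannot separate it from age.

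From week 3 to 6, 14 mitosis members rose and 5 replication members fell. Of the 28 mitosis members 0 fell, and of the 15 replication members 1 rose (Ccne2, by 0.61 ± 0.14), where 30.3% of all genes rose and 24.8% fell. The median change was 0.54 for mitosis and -0.19 for replication, beside 0.06 over all genes. With each array centred on its median, 9 mitosis members rose and 1 fell, and with quantile normalization 12 rose and 1 fell. With the spread of each array as a covariate, the replication median turned to 0.11 and 2 replication members fell. The spread did not overlap between these weeks (interquartile ranges of 2.706 to 2.803 at week 3 and 2.258 to 2.635 at week 6). That fit therefore cannot separate the spread from age. With a term for week 6 replicates 4 and 6, which are tied to the other arrays of that week, 11 mitosis members rose and 3 replication members fell. Called was 1 member, Cenpe, the kinesin that carries chromosomes to the spindle equator, against a background of 1.94% called higher and 3.03% called lower. Its values were 4.59, 4.78 and 5.28 (lowest, median and highest) at week 3 and 5.36, 5.84 and 6.32 at week 6, so that the weeks did not overlap. The change was 1.02 ± 0.19 (2.03-fold, adjusted p = 5.54e-05) with 6 arrays at each week. The call stood near the 2-fold limit. It was lost with each array centred on its median (0.93), with quantile normalization (0.83), and without week 3 replicate 1 (0.99), week 3 replicate 3 (0.97), week 6 replicate 1 (0.92) or week 6 replicate 2 (0.98). With the epithelium covariate, Cenpe, Top2a, Bub1 and Melk were called higher. Without overlap between the weeks were also Melk and Ndc80 (higher) and Mcm7 (lower), 3 members higher in all and 1 lower, against 18.1% and 16.9% of all genes. The 10 striated muscle genes were all called higher between these weeks, by a median of 3.28, and their part in the result was not tested.

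From week 6 to 8, 7 of 28 mitosis members rose and 0 fell, and of 15 replication members Mcm7 rose and Ccne2 fell. Of all genes, 11.9% rose and 21.9% fell. In limma 0 members were called (11 higher and 3 lower at an unadjusted p under 0.05), beside 0.226% of all genes called higher and 1.13% called lower. The mitosis members that rose were Plk1 (by 0.79 ± 0.17), Foxm1 (0.77 ± 0.14), Aurkb (0.51 ± 0.13), Kif20a (0.51 ± 0.20), Bub1b (0.48 ± 0.18), Ube2c (0.46 ± 0.13) and Cdc20 (0.46 ± 0.13). Plk1, Foxm1 and Aurkb had not risen from week 3 to 6, where their changes were -0.28, -0.31 and -0.04. The weeks overlapped in every member, whereas 5.13% of all genes lay wholly higher and 11.4% wholly lower at week 8. With the term for week 6 replicates 4 and 6, 5 members rose and 1 fell. With the epithelium covariate, the mitosis median went from 0.32 to -0.02, with 5 higher and 2 lower, and 6 replication members fell and 0 rose. The epithelium means of these weeks overlapped only through week 8 replicate 2 (9.551). The other week 8 arrays had 10.471 to 10.707, against 9.548 to 10.098 at week 6. This fit therefore hardly separates the epithelium from age.

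Over the whole span from week 1 to 8, 28 of 28 mitosis members rose, while 6 of 15 replication members did (Rrm2, Mcm6, Ccne1, Mcm5, Cdc6 and Tyms) and 0 fell. Of all genes 29.1% rose and 28.7% fell. The median change was 0.93 for mitosis and 0.38 for replication, beside 0.04 over all genes. Called higher were 10 members, all of mitosis, against a background of 3.21%, and 0 were called lower, against 4.76%. The week 8 values lay wholly above those of week 1 for 6 members, Aurka, Aurkb, Birc5, Plk1, Cdc20 and Ube2c, and wholly below for 0, against 10.5% and 13.0% of all genes. The count of 10 rested on single arrays: it was 6 without week 8 replicate 1, 21 without week 8 replicate 2 and 17 without week 1 replicate 1. With the epithelium covariate 0 mitosis members rose, 0 were called higher and 2 replication members, Pcna and Rrm1, were called lower. The epithelium means of the arrays did not overlap between weeks 1 and 8 (7.64 to 9.28 against 9.55 to 10.71), so that this fit cannot separate the epithelium from age.

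**Figure D2:**
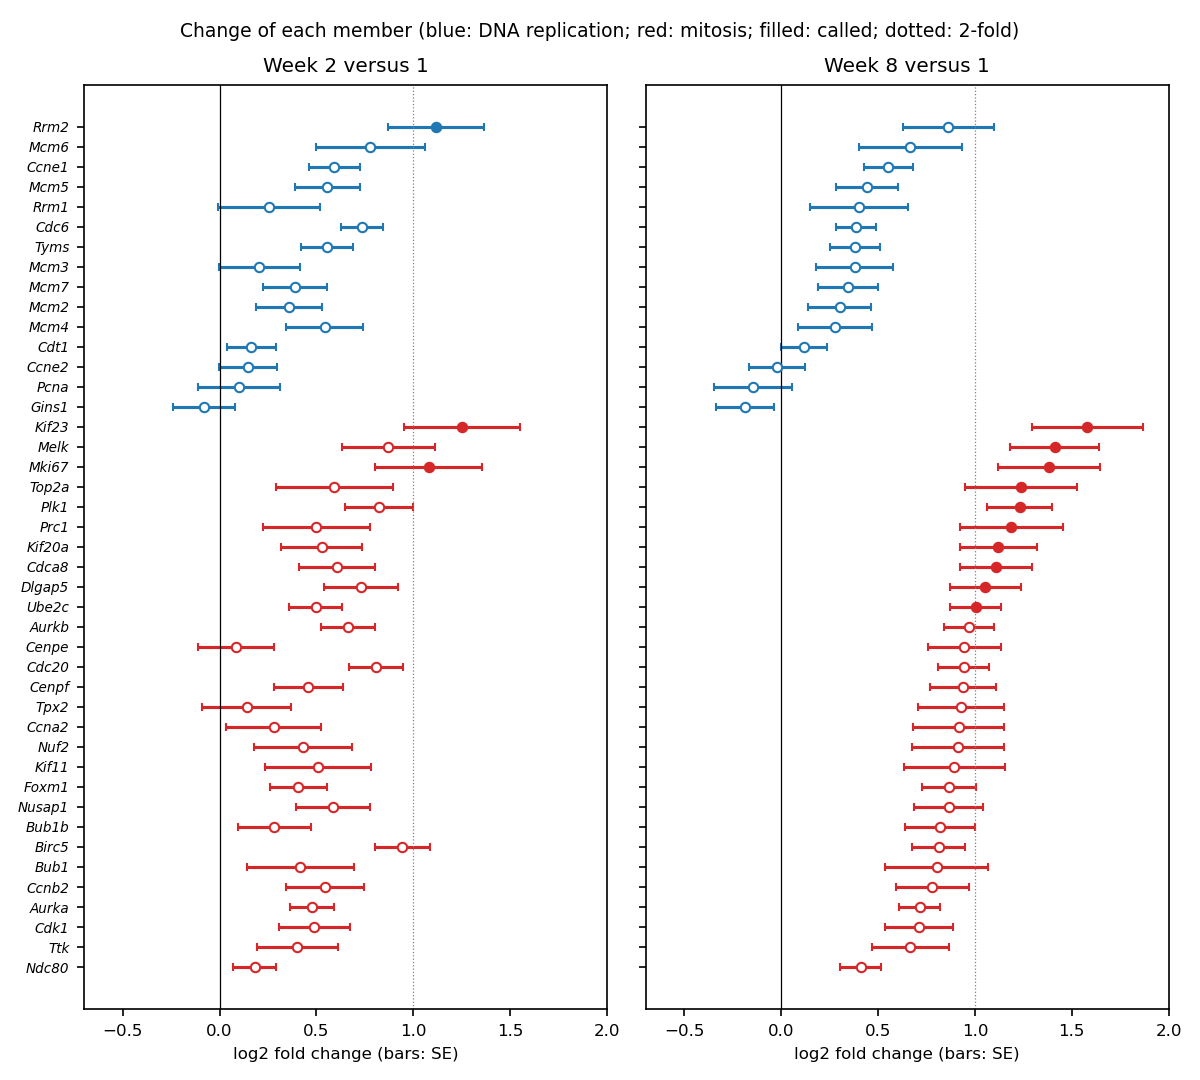
Log2 fold change of each of the 43 members from week 1 to 2 (left) and from week 1 to 8 (right), with bars of 1 SE from the limma fit. Blue marks DNA replication and red marks mitosis, filled points were called and the dotted line is a 2-fold change. At week 8 the mitosis members lie between 0.41 (Ndc80) and 1.58 (Kif23), and the replication members between -0.19 (Gins1) and 0.86 (Rrm2).

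Taken by role, the subunits of the replicative helicase did not move as 1 unit. Mcm7 (on chromosome 5 at 138164583 to 138172111 in GRCm38.p6) had medians of 7.12, 7.52, 8.07, 7.15 and 7.51 at weeks 1, 2, 3, 6 and 8. Its week 3 values of 7.58 to 8.26 lay wholly above its week 6 values of 6.34 to 7.30. Mcm7 rose from week 2 to 3 by 0.48 ± 0.17 (adjusted p = 0.019), fell from week 3 to 6 with a change of -0.998 ± 0.16 (adjusted p = 6.69e-06), just short of the 2-fold limit, and rose from week 6 to 8 by 0.47 ± 0.16 (adjusted p = 0.0203). It was called lower from week 3 to 6 with each array centred on its median. Mcm2 and Mcm5 also fell from week 3 to 6, by 0.47 ± 0.16 and 0.40 ± 0.16. Mcm6 had a change of the opposite sign between these weeks, 0.41 ± 0.27 (adjusted p = 0.202). Mcm4, Mcm5, Mcm6 and Mcm7 rose from week 1 to 2, by 0.54, 0.56, 0.78 and 0.39, whereas Mcm2 (0.36, adjusted p = 0.0638) and Mcm3 (0.21, adjusted p = 0.392) did not pass the test.

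The factors that load and start the helicase also differed among themselves. Cdc6, the loader, had medians of 5.67, 6.42, 6.18, 5.87 and 6.03 over the 5 ages. Its week 2 values of 6.23, 6.42, 6.22, 6.48 and 6.58 lay wholly above the week 1 values of 5.46 to 5.82, with a change of 0.74 ± 0.11 (adjusted p = 2.15e-06), and it fell from week 2 to 3 by 0.30 ± 0.11. Cdt1, its partner, stood highest at week 3, with a median of 6.83, and fell from week 3 to 6 by 0.51 ± 0.12 (adjusted p = 0.000813). Gins1, a subunit of the GINS complex of the active helicase, had medians of 4.73 to 5.07, below the median transcript cluster, and passed the test in 0 of the 5 comparisons. Pcna, the sliding clamp of the DNA polymerases, also passed it in 0 of 5. Its medians were 8.62, 8.76, 9.31, 8.95 and 8.72, and its changes were 0.10 ± 0.21 from week 1 to 2 and -0.15 ± 0.20 from week 1 to 8. The sign of the latter rests on week 8 replicate 2 (7.387, the others 8.573 to 8.892), since the week 8 median was above that of week 1.

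Of the nucleotide enzymes, Rrm1, the large subunit of ribonucleotide reductase, had a change of 0.26 ± 0.27 from week 1 to 2, where Rrm2 was called higher. Tyms, which makes thymidylate, rose from week 1 to 2 by 0.55 ± 0.14 (adjusted p = 0.000855) and fell from week 3 to 6 by 0.35 ± 0.13 (adjusted p = 0.0229). The cyclins E followed different courses. Ccne1 was at 5.98 to 6.46 at week 1 and 6.69 to 6.79 at week 2, without overlap, rose by 0.59 ± 0.13 (adjusted p = 0.00034) and was still higher at week 8 than at week 1 by 0.55 ± 0.13. Ccne2 had its highest median, 4.91, at week 6, rising from week 3 by 0.61 ± 0.14 and falling to week 8 by 0.54 ± 0.14.

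Among the general markers of proliferation in the mitosis group, Mki67 had medians of 6.94, 8.12, 7.47, 8.03 and 8.39 at weeks 1, 2, 3, 6 and 8. From week 1 to 8 it rose by 1.38 ± 0.26 (2.61-fold, adjusted p = 0.000114), with week 8 values from 7.24 to 8.90 that overlapped those of week 1. Top2a, which untangles DNA before chromosomes part, had medians of 6.82, 7.47, 6.99, 7.89 and 8.20 and rose from week 1 to 8 by 1.24 ± 0.29 (2.36-fold, adjusted p = 0.000935). A second transcript cluster of Top2a, with a mean signal of 2.65, disagreed: its change from week 1 to 8 was -0.05 ± 0.11, and the mean of both clusters changed by 0.59 and was not called. Melk, a kinase that is abundant in dividing cells, ran from 5.26 over 5.60 to 6.40 at week 1 and from 6.24 over 7.09 to 7.89 at week 8, a rise of 1.41 ± 0.23 (2.66-fold, adjusted p = 1.7e-05). Melk also rose from week 3 to 6, by 0.92 ± 0.23, with no overlap between the weeks. Foxm1, a transcription factor of G2 and M phase genes, had medians of 6.02, 6.38, 6.53, 6.19 and 6.99, and it rose from week 1 to 8 by 0.87 ± 0.14.

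The cyclins and their kinase were not called. Ccna2, Ccnb2 and Cdk1 rose from week 1 to 8 by 0.92 ± 0.24, 0.78 ± 0.19 and 0.71 ± 0.18. Ccna2, which acts in S phase as well as in mitosis, was at 6.97, 7.33, 7.31, 7.85 and 8.07 at the median. Its change from week 1 to 2 was 0.28 ± 0.25 (adjusted p = 0.32), and it rose from week 3 to 6 by 0.69 ± 0.24. Cdk1, the kinase that starts mitosis, had medians of 6.56, 7.22, 6.82, 7.21 and 7.49 and rose from week 1 to 2 by 0.49 ± 0.19.

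**Figure D3:**
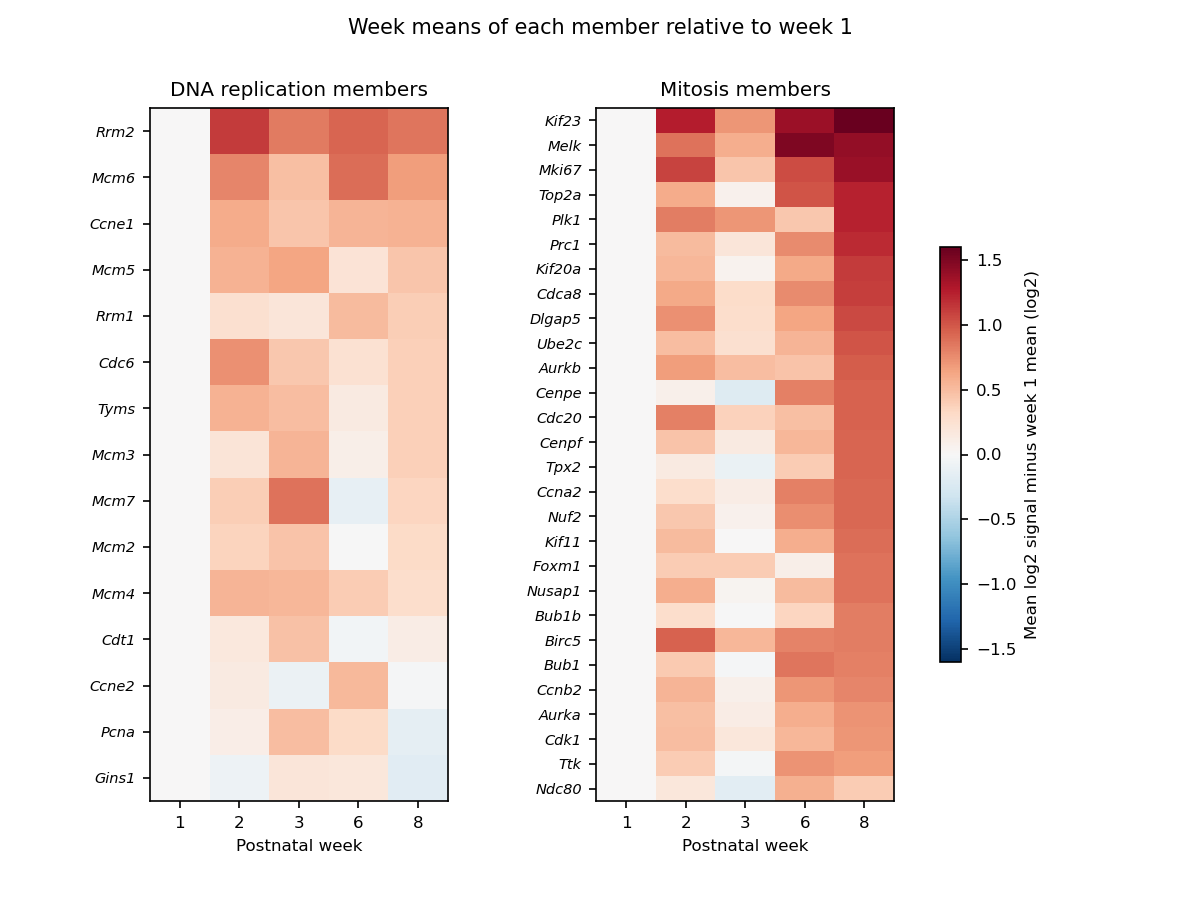
Mean log2 signal of each member at each postnatal week minus its mean at week 1, for DNA replication (left) and mitosis (right), with members ordered by their change at week 8. Red is above and blue is below week 1. Most mitosis members are paler at week 3 than at weeks 2 and 6, whereas Mcm7 is darkest at week 3.

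Of the mitotic kinases, Plk1, the Polo kinase, was at 6.20 to 6.83 at week 1 and 7.14 to 8.04 at week 8. The weeks did not overlap, and Plk1 rose by 1.23 ± 0.17 (2.35-fold, adjusted p = 1.71e-06). Aurka, the kinase of the spindle poles, followed the course of the group, rising from week 1 to 2 by 0.48 ± 0.11, falling to week 3 by 0.36 ± 0.11 and rising to week 6 by 0.46 ± 0.11. Aurkb, the kinase of the chromosomal passenger complex, changed by 0.66 ± 0.14, -0.17 ± 0.14 and -0.04 ± 0.13 over the same steps. It rose from week 1 to 8 by 0.97 ± 0.13 (adjusted p = 1.55e-06), just short of the 2-fold limit. Birc5 and Cdca8, the genes of that complex given here besides Aurkb, rose as well from week 1 to 8, Birc5 by 0.81 ± 0.14. Birc5, also known as survivin, rose from week 1 to 2 by 0.94 ± 0.14, with week 1 values of 5.38 to 6.00 and week 2 values of 6.60, 7.04, 6.11, 6.54 and 6.57. Cdca8, which encodes borealin, rose from week 1 to 8 by 1.11 ± 0.19 (2.16-fold, adjusted p = 2.51e-05), from 5.07 to 5.92 at week 1 to 5.79 to 7.29 at week 8.

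The genes of the kinetochore and its checkpoint were lowest at week 3 or week 1. Ndc80 and Nuf2 encode partners in the complex that grips microtubules. Ndc80 was at 4.63 to 4.79 at week 3 and 5.28 to 5.61 at week 6, and rose between them by 0.73 ± 0.11 (adjusted p = 2.52e-06). From week 1 to 8 it rose by 0.41 ± 0.11, the smallest such change of a mitosis member. Nuf2 rose by 0.68 ± 0.24 and 0.91 ± 0.24 over these spans, and the difference between the genes was not tested. Bub1, Bub1b and Ttk, of the spindle checkpoint, had changes of 0.88 ± 0.26, 0.35 ± 0.18 and 0.75 ± 0.20 from week 3 to 6, of which that of Bub1b did not pass the test (adjusted p = 0.108). From week 6 to 8 the changes of Bub1 and Ttk were -0.06 ± 0.26 and -0.06 ± 0.20. Cenpf rose from week 1 to 8 by 0.94 ± 0.17, as Cenpe did by 0.95 ± 0.19.

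The spindle and cytokinesis genes held 4 of the 10 calls from week 1 to 8. Kif23 had the largest change of the members, 1.58 ± 0.28 (2.99-fold, adjusted p = 6.1e-05), with values of 5.68, 6.41 and 6.97 at week 1 and 6.69, 8.09 and 8.57 at week 8 (lowest, median and highest). The weeks overlapped through week 8 replicate 2, the lowest array of its week. Prc1, which bundles the midzone microtubules, ran from 5.80 over 6.10 to 7.15 at week 1 and from 6.24 over 7.50 to 8.14 at week 8, a rise of 1.19 ± 0.27 (2.28-fold, adjusted p = 0.000614). Kif20a, a kinesin of cytokinesis, rose by 1.12 ± 0.20 (2.18-fold, adjusted p = 4.72e-05) and Dlgap5, a spindle protein also known as HURP, by 1.05 ± 0.18 (2.08-fold, adjusted p = 3.49e-05). Week 8 replicate 1 decided several of these calls. Without it, Kif20a (0.98), Dlgap5 (0.95), Cdca8 (0.97) and Ube2c (0.94) were no longer called, and Dlgap5 was also lost without week 1 replicate 3 (0.99). Kif11, the motor that pushes the spindle poles apart, Tpx2, an activator of Aurka, and Nusap1, a microtubule binder, rose by 0.89 ± 0.26, 0.93 ± 0.22 and 0.86 ± 0.18 and were not called.

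The anaphase-promoting complex, which ends mitosis, was represented by its activator Cdc20 and its conjugating enzyme Ube2c. Ube2c was at 5.95 to 6.37 at week 1 and 6.69 to 7.48 at week 8, without overlap. Its rise of 1.00 ± 0.13 (adjusted p = 8.38e-07) was the call nearest to the 2-fold limit, and it was also lost without week 1 replicate 3, 4 or 5 or week 8 replicate 3 or 6, with values of 0.96 to 0.99. Cdc20 was at 6.54 to 7.05 at week 1, at 7.94, 7.66, 7.21, 7.44 and 7.47 at week 2, and at 7.21 to 8.05 at week 8. It rose from week 1 to 2 by 0.81 ± 0.14 (adjusted p = 2.02e-05), fell to week 3 by 0.45 ± 0.14 and rose from week 6 to 8 by 0.46 ± 0.13.

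The balance of the groups was taken on each array as the replication mean minus the mitosis mean, relative to its week 1 mean. It is a description, since the groups share their arrays and the genes of a group are no replicates. The balance ran from -0.18 to 0.17 at week 1, -0.26 to 0.01 at week 2, 0.16 to 0.41 at week 3, -0.55 to -0.18 at week 6 and -0.90 to -0.51 at week 8. Its means were -0.13 ± 0.10 (SD over arrays, n = 5) at week 2, 0.26 ± 0.10 (n = 6) at week 3, -0.36 ± 0.12 at week 6 and -0.66 ± 0.13 at week 8. The arrays of week 3 stood above all of week 2 and all of week 6, while weeks 1 and 2, weeks 1 and 3, weeks 2 and 6, and weeks 6 and 8 overlapped. Week 8 replicate 2, the lowest array of its week in both groups, had the highest balance of that week (-0.51).

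**Figure D4:**
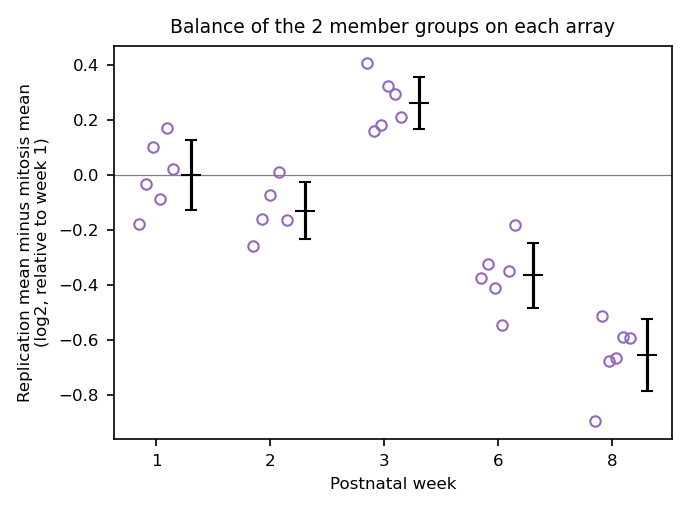
Replication mean minus mitosis mean (log2) on each of 29 arrays, relative to the mean of week 1, by postnatal week (open circles; bars are the mean and SD of each week). The 6 arrays of week 3 lie between 0.16 and 0.41 and the 6 of week 8 between -0.90 and -0.51.

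Cell cycle genes beyond the members were counted in the same way, from lists of further replication and mitosis genes. Of 48 other mitosis genes, 22 rose and 2 fell from week 1 to 2, beside 36.6% and 32.7% of all genes. To week 3, 2 rose and 12 fell, the latter near the 23.4% of all genes that fell (27.2% rose). To week 6, 20 rose and 1 fell (30.3% and 24.8% of all genes), and to week 8, 15 rose and 0 fell (11.9% and 21.9%). From week 1 to 8, 37 rose and 0 fell, beside 29.1% and 28.7% of all genes. Called from week 1 to 8 were 5 of them (10.4%), all higher, against a background of 3.21%. Anln, which encodes the cytokinesis scaffold anillin, rose by 1.71 ± 0.30, Ckap2l, a spindle protein, by 1.34 ± 0.22, and Racgap1, the partner of Kif23 in the midzone, by 1.28 ± 0.27. Of 45 other replication genes, 16 rose and 10 fell from week 1 to 2 (35.6% higher, beside 36.6% of all genes, median change 0.14). To week 3, 5 rose and 3 fell (27.2% and 23.4% of all genes), and to week 6, 14 rose and 10 fell (30.3% and 24.8%). To week 8, 10 rose and 13 fell (11.9% and 21.9%), and from week 1 to 8, 16 rose and 9 fell (29.1% and 28.7%). Their list means at weeks 1, 2, 3, 6 and 8 were 6.575, 6.652, 6.673, 6.702 and 6.645, highest at week 6. Called among them were Uhrf1, which recruits the maintenance DNA methyltransferase and rose from week 1 to 2 by 1.05 ± 0.24, Tipin, a partner of Timeless at the replication fork, which fell at that step by 1.05 ± 0.15, and Pold2, a subunit of DNA polymerase delta, which fell from week 3 to 6 by 1.24 ± 0.09.

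Of 30 genes that govern entry into the cycle, 11 rose and 12 fell from week 1 to 2 (36.7% higher, beside 36.6% of all genes higher and 32.7% lower). Ccnd1, the cyclin D1 gene, rose from a mean of 8.70 at week 1 to 10.08 at week 2, a change of 1.38 ± 0.22 (adjusted p = 4.68e-06) without overlap. Ccnd3 fell by 0.64 ± 0.11 (adjusted p = 1.09e-05), and the change of Ccnd2 was -0.17 ± 0.16. Cdk2, the kinase partner of cyclin E, fell by 1.37 ± 0.19 (adjusted p = 7.02e-07) from week 1 to 2, and Cdk4, the partner of the cyclins D, fell by 1.09 ± 0.11 (adjusted p = 1.24e-08) from week 3 to 6, both without overlap. Of 14 inhibitor genes, Cdkn1c, which encodes p57, fell from a mean of 9.62 at week 1 to 8.37 at week 2 and 8.17 at week 8, with a change of -1.45 ± 0.19 over the whole span (adjusted p = 7.83e-07) and without overlap. Cdkn2b, which encodes p15, rose from 6.19 to 7.86 at week 2, by 1.66 ± 0.16 (adjusted p = 5.38e-09), and stayed higher at week 8 than at week 1, by 1.29 ± 0.15. Wee1, the kinase that holds back Cdk1, rose from week 2 to 3 by 1.38 ± 0.19 (adjusted p = 3.6e-06) and fell to week 6 by 1.20 ± 0.18. Cdkn1b, which encodes p27, fell by 0.37 ± 0.09 from week 1 to 2 and rose by the same size to week 3 (0.37 ± 0.09). Cdkn1a had no cluster of its own and was not analysed.

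Histone mRNAs are made in S phase and offer a readout of replication next to the enzymes. Of 31 histone genes measured, 23 rose and 3 fell from week 1 to 2, beside 36.6% and 32.7% of all genes. From week 2 to 3, 2 rose and 10 fell (27.2% and 23.4% of all genes). Their median change at that step was -0.23, beside -0.02 for the replication members and -0.35 for the mitosis members. From week 3 to 6, 4 rose and 14 fell (30.3% and 24.8% of all genes), and from week 6 to 8, 12 rose and 6 fell (11.9% and 21.9%). Their list mean was 6.10 ± 0.05 at week 1, 6.60 ± 0.15 at week 2, 6.47 ± 0.14 at week 3, 6.14 ± 0.07 at week 6 and 6.36 ± 0.20 at week 8. H4c6 rose from week 1 to 2 by 1.62 ± 0.27, and from week 3 to 6 H4c6 fell by 1.77 ± 0.26, H4c4 fell by 1.64 ± 0.15 and H4f16 fell by 1.26 ± 0.10. Histone genes are near-identical copies, so their probes may share signal and single histone values are uncertain.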

How the data were processed

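Gene expression was measured with Affymetrix Mouse Gene 1.0 ST arrays in single sclerae of Balb/cJ mice, 1 array per animal, and arrays were grouped by the age in the labels. The deposited values were log2 signals per transcript cluster, made by the authors from the scanner files. The authors' methods name robust multiarray averaging and a removal of batch effects by scan date in Partek Genomic Suite, whereas the submitters' processing notes list GCRMA and Partek 6.5, so that the summarisation is not settled, and batch removal can tie arrays to one another. Scan dates were not used here. No linear intensities were used, so no bound for dim probes was set. Of the 43 members, 12 had a mean below that of the median transcript cluster (6.228).

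Genes were named through the platform annotation, in which 21789 transcript clusters had 1 symbol, 1621 several and 12146 none. One array, week 2 replicate 4, was the mean of the other arrays of its week and was left out after the values had been seen; the design had named all 30 arrays, and that fit is given as an alternative. Deviations from the week means spanned 23 independent directions where 25 would be free.

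With limma 3.58.1 (R 4.3.3), a linear model holding 1 mean per week was applied to all 35556 transcript clusters, with moderated variances and Benjamini-Hochberg adjustment within each of the 5 comparisons. Called means an adjusted p of 0.05 or less and a fold change of at least 2, as in the authors' criterion. Percentages for all genes refer to the 19938 genes with a cluster of their own. The script was tested on simulated data. The members and lists were chosen with earlier results of these data known, and no test was made over a list. All members are named; of the other lists, up to 3 called genes with the largest change are named, with Cdkn1b, Cdkn1c and the cyclin D genes always given. Histone genes were found through RefSeq synonyms. Alternatives were array weights, median centring, quantile normalization, the spread of each array as a covariate, signal filters, single-symbol clusters, means over clusters, unmoderated variances, pairs of weeks alone, a replicate block and leaving out each array. Promoter letters were counted in RefSeq promoter sequences (GRCm38.p6) in Python 3.11.15.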

Additional observations from a re-analysis of the deposited data

Results flagged for a closer look

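For each member and for both group means, the highest and the lowest array of each week were set against the others of that week by Dixon's test, and 33 of 225 such groups had an array farther from the rest than the critical value of that test. Chance gives about 1 in 20, and since the members move together on an array, these results are not independent of each other.

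Week 8 replicate 2 stood below the other 5 arrays of its week in the replication mean (6.220, others 6.870 to 7.180). Among replication members it was low in Mcm3 (6.076), Mcm4 (6.298), Mcm6 (6.267), Cdt1 (6.166), Pcna (7.387), Rrm1 (7.315) and Rrm2 (6.372). Among mitosis members it was low in Mki67 (7.235), Top2a (6.804), Ccnb2 (6.563), Kif23 (6.694), Nusap1 (5.133), Prc1 (6.244) and Tpx2 (6.276). Its surface epithelium mean, 9.55, was also the lowest of that week, where the others had 10.47 to 10.71. The same array had the lowest array quality weight of all arrays used, 0.261, and the narrowest spread of its week (interquartile range 2.329). Its means for striated muscle (11.457), photoreceptor (8.306) and lens genes (7.302) were the highest of that week, and its leukocyte mean (6.839) was the lowest. Also highest were its means for scleral fibroblast (10.134), endothelium (8.978), pigment epithelium (8.285), muscle precursor (6.988), retinal progenitor (6.866) and erythroid genes (6.125). Its Schwann cell mean (7.582) was neither the highest nor the lowest. The part of array quality and of each tissue in the low member values was not tested.

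Week 1 replicate 1 stood above the others of its week in the replication mean (6.915, others 6.417 to 6.567), and in Mcm3 (7.276), Ccnb2 (7.251), Cdk1 (7.239), Bub1b (6.413), Prc1 (7.152) and Dlgap5 (6.516). Week 2 replicate 3 stood below the other 4 arrays used in the mitosis mean (6.245, others 6.598 to 6.685), and in Mcm5 (7.155), Top2a (6.856), Bub1 (5.280), Kif11 (6.172), Kif23 (6.969) and Ttk (5.191). At week 3, replicate 3 was low in Mcm2 (6.951), and replicate 2 was high in Cenpe (5.278) and Cenpf (6.123). At week 6, replicate 3 was low in Mcm5 (6.459).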

How the results depend on the processing

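The replication minus mitosis difference kept its sign in all 5 comparisons under other scalings, groupings of Ccna2, Ccne1, Ccne2, Mki67, Foxm1 and Melk, and means over clusters, though for week 2 versus 1 it shrank from -0.13 to -0.06 with quantile normalization and -0.07 with arrays scaled to 1 interquartile range. Without single arrays it ran from -0.16 to -0.09 (week 2 versus 1), 0.36 to 0.43 (3 versus 2), -0.67 to -0.59 (6 versus 3), -0.33 to -0.24 (8 versus 6) and -0.69 to -0.61 (8 versus 1). The counts of called members depended on the setting, and the cause was not tested. For week 6 versus 3 (1 called), 0 were called among genes above the median signal and after quantile normalization, 2 with array quality weights (1 higher and 1 lower), and 1 with median centring, where Mcm7 was lower and Cenpe was lost. For week 8 versus 1 (10 called), 19 were called with array weights. Without the fold threshold, 25, 7, 20, 9 and 34 members passed in weeks 2 versus 1, 3 versus 2, 6 versus 3, 8 versus 6 and 8 versus 1. With the spread of each array as a covariate, 12, 1 (lower), 12 and 20 were called in weeks 2 versus 1, 3 versus 2, 6 versus 3 and 8 versus 1. Except in weeks 8 versus 1, the spread did not overlap between the weeks compared, so that there this fit cannot separate it from age. With all 30 arrays or with a term for week 6 replicates 4 and 6, both chosen after seeing the data, the counts of calls were the same.

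With the surface epithelium mean as a covariate, also chosen after seeing the data, the calls turned to 1 lower for week 2 versus 1, 4 higher for 6 versus 3 and 2 lower for 8 versus 1. Changes under it were Rrm2 -0.114, Mki67 -0.313 and Kif23 -0.406 for week 2 versus 1, and Mki67 -0.193, Top2a -0.507, Kif20a -0.142, Kif23 -0.296 and Prc1 -0.406 for 8 versus 1. That covariate itself differs by week. It did not overlap between week 1 and weeks 2 or 8, so that for these spans its fit cannot separate the epithelium from age. Leaving out each array in turn, also an addition, gave 2 to 5 calls for week 2 versus 1 (5 without week 1 replicate 1 or week 2 replicate 3), 0 for 3 versus 2 and 8 versus 6, 1 to 4 for 6 versus 3 and 6 to 21 for 8 versus 1, and 38 to 42 members in the F test. For week 6 versus 3, the count was 3 without week 3 replicate 2, 4 without week 6 replicate 3, 2 without week 3 replicate 5 or week 6 replicates 4, 5 or 6, and the 1 call was lower without week 3 replicates 1 or 3 or week 6 replicates 1 or 2.

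No pairing of the samples by replicate number was seen. The deviations of same-numbered arrays of different weeks correlated at 0.035 on average over 56 pairs (13 above 0.1, range -0.412 to 0.462). Arrays of other numbers correlated at -0.00656 over 280 pairs (68 above 0.1, range -0.489 to 0.478). Of 29 arrays, 6 correlated best with their own number. With the replicate block, 3, 0, 1, 0 and 10 members were called, as without it.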
